A study of Arabidopsis thaliana with 9 samples.

Results

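The genes described here are rRNA processing factors of Arabidopsis thaliana, the proteins that cut, trim, modify and fold ribosomal RNA precursors. They were chosen by annotation alone: a gene was taken when the deposited table gives it the biological process term rRNA processing, and genes named or described as ribosomal proteins were left out. Of 25320 genes in the table, 95 carried the term, 7 of these were left out as ribosomal, and 88 remained. To be tested, a gene had to reach 1 FPKM in 3 or more of the 9 libraries, which 76 of the 88 did. FPKM is a fragment count scaled by gene length and by library depth, so that levels can be compared between genes. No library of the other 12 exceeded 1.07 FPKM, and these 12 were counted as members but not tested.

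All plants were wild type (WT in the labels), raised in soil to seedlings of 2 weeks, and RNA came from stems and leaves together. The 3 control libraries were labelled day 0 and as room temperature or before stress. The 3 libraries of plants with 1 cold cycle (day 1) followed a cycle of 6 h at 4 °C with 18 h of recovery at room temperature, and the 3 libraries of plants with 4 such cycles were labelled day 4. The treatment text adds 6 h at 0 °C without saying whether sampling came before or after it, so, against control, effects of that step and of the cycles cannot be told apart, and day differed with group throughout. The libraries held 17.98 to 21.49 M reads each (M stands for mega), as worked out from the steps between low values. Whether replicates came from separate plants is not stated in the labels, and p-values therefore reflect library-to-library spread, which may be technical.

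In plants, as in other eukaryotes, a long precursor transcribed by RNA polymerase I in the nucleolus is folded and cut by a large particle, the small subunit processome, built around the U3 snoRNA. Further factors assemble the large subunit, guide RNA modification through snoRNPs, unwind intermediates with RNA helicases and trim ends with the exosome. Chloroplasts and mitochondria have ribosomes of bacterial type and their own nuclear-encoded processing enzymes, many of which have bacterial counterparts.

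The 88 genes were sorted by their descriptions into 19 genes of the small subunit processome, 4 of the H/ACA snoRNP and snoRNP assembly, 9 of large subunit assembly, 14 helicases, 8 of the exosome and its cofactors, 4 nuclear methyltransferases and endonucleases, 13 organellar or bacterial-type factors, 2 nucleolins and 10 genes annotated by similarity to nucleolin. The remaining 5 were described as something else (a cytochrome P450, an F-box protein, 2 pentatricopeptide repeat proteins and FLP2) and lay beside an annotated gene with the same terms. Their mean level over the 9 libraries had a median of 9.76 FPKM among the 76 tested genes, with 3 genes over 100 FPKM (CRB, CSP41A and NUC-L1), 16 between 20 and 100, 38 between 5 and 20 and 19 under 5. The median tested gene had 448 reads in a library, a counting error of 4.72%.

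After 1 cold cycle the rRNA processing factors were mostly higher than in control. Of the 76 tested, 34 rose and 7 fell (limma, Benjamini-Hochberg adjusted p under 0.05 over all 17740 genes tested, the test used throughout), and 35 did not pass. Among all genes tested, 18.7% rose and 33.6% fell in this comparison, and 52.3% were called in either direction. The rises were moderate: the median log2 change of the 76 genes was 0.27, against -0.16 for all genes, and the highest was 1.01. Log2 changes here are differences of group means of log2(FPKM + 1), with the standard error of the model. All 3 libraries with 1 cycle lay above all 3 control libraries for 42 of the 76 genes, where the share over all genes was 24.0%, and below them for 8, where it was 40.6%. Rescaling libraries to equal median ratios moved the median of all genes to -0.01 and the counts to 45 higher and 4 lower, while over all genes the share of calls that were higher went from 35.7% to 50.3%. Of all genes, 25.4% were then higher and 25.1% lower.

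After 4 cycles the same comparison with control gave smaller counts. Of the 76 genes, 17 rose and 3 fell, beside 14.6% and 24.9% of all genes (39.5% in either direction). The median log2 change was 0.16, against -0.10 for all genes, and the highest was 0.98. Libraries of both groups did not overlap for 24 genes that were higher (19.0% of all genes) and 7 that were lower (31.7% of all genes). The count of 17 depended on the scaling and on single libraries. It was 30 after median-of-ratios scaling, which moved the median of all genes to 0.01, and 29 after quantile normalization. It was 10 without control replicate 1, 11 without control replicate 3 and 9 without four-cycle replicate 3. In the last of these fits the share of members that rose was no larger than that of all genes. Both comparisons used the same 3 control libraries.

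**Figure D1:**
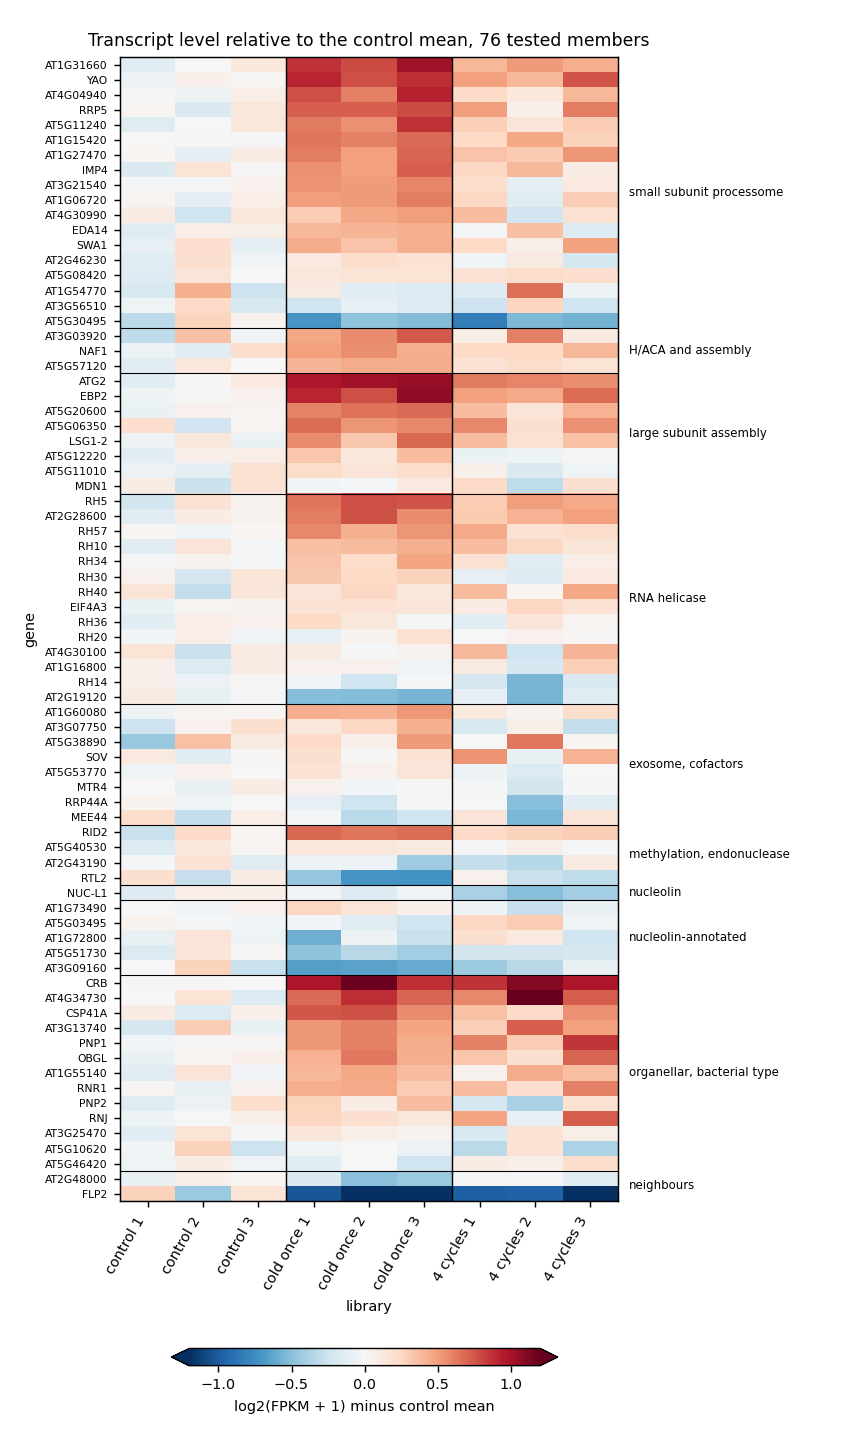
Each row is 1 of the 76 tested rRNA processing factors and each column 1 library; colour gives log2(FPKM + 1) minus the mean of the 3 control libraries, with rows grouped by role. Red prevails in the small subunit processome, large subunit assembly and organellar rows after 1 cycle, and is paler after 4 cycles in the first of these groups.

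The table's cellular component terms gave a coarser grouping, to be read against the 18.7% of all genes that rose after 1 cycle and the 14.6% after 4. Of the members, 54 had a term naming the nucleolus or a nucleolar complex, and of the 45 tested among them 21 rose and 4 fell after 1 cycle and 8 rose and 2 fell after 4 cycles. A chloroplast or plastid term without a nucleolar one was given to 7 members, and all 6 tested among them rose in both comparisons with control. Of 4 members with a mitochondrial term only, 1 rose in each comparison, and of 21 tested members with other terms or none, 6 rose and 3 fell after 1 cycle and 2 rose and 1 fell after 4.

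The promoters of members that rose together are shown before their values because 2 short motifs recur in promoters of plant ribosomal genes. They are the site II element, searched here as TGGGCC or TGGGCT, and the telo box, searched as AAACCCTA, each on both strands, with overlapping matches of 1 motif counted once. In windows from 250 bases before to 50 bases after the gene start, a site II element was found for 41 of the 88 members (46.6%) and for 23.0% of 25093 nuclear genes, and a telo box for 17 members (19.3%) and 6.0% of nuclear genes. At least 2 site II elements lay in 32 member promoters (36.4%) and in 14.4% of all. Of the 19 small subunit processome genes, 13 had a site II element (68.4%, the highest share of any role) and 4 a telo box. Of the 18 tested among these processome genes, 12 rose after 1 cycle. Of the 9 large subunit assembly genes, 2 had a site II element (22.2%), and 5 of the 8 tested rose after 1 cycle. Whether site II shares go with the rises by role was not tested. Of the 10 genes annotated by similarity to nucleolin, 5 had a site II element. These were not the same genes as the 5 tested, of which none rose. Only AT1G73490 and AT5G51730 were tested and had a site II element. Among 168 other ribosome biogenesis genes of the table the site II and telo box shares were 47.6% and 27.4%. They were 62.2% and 35.5% among 392 genes named or described as ribosomal proteins. Within the tested members of nuclear and cytoplasmic role, 15 of the 26 that rose after 1 cycle had a site II element (57.7%), as did 16 of the 35 others (45.7%). Among all nuclear genes that rose after 1 cycle the share was 27.2%, against 26.4% of all nuclear genes tested. A match describes letters in a window and was not tested as a binding site.

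**Figure D2:**
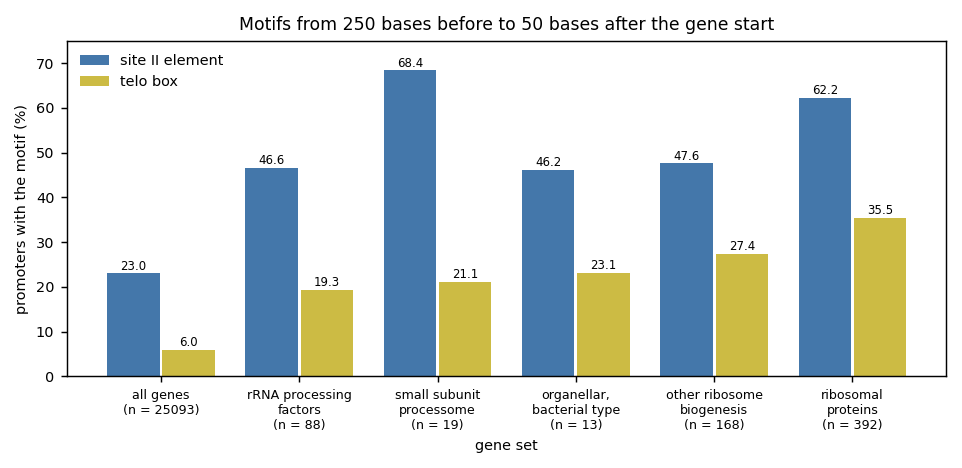
Bars give the percentage of promoters with at least 1 site II element (blue) or telo box (yellow) in the window from 250 bases before to 50 bases after the gene start, for 6 gene sets with their size n. The small subunit processome genes stand at 68.4% for site II and all nuclear genes at 23.0%.

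For illustration, the 160 bases before the start of 5 members that rose after 1 cycle are printed 5′ to 3′ on the strand of the gene, with site II elements and telo boxes in capitals (RefSeq, build TAIR10.1). They were picked after fold changes, motif matches and neighbouring genes had been seen, hold a motif by choice and overlap no neighbouring gene. The bystin gene AT1G31660 (chr1:11333541-11333700, minus strand), YAO (chr4:2745636-2745795, minus strand), AT5G11240 (chr5:3582346-3582505, plus strand) and ATG2 (chr3:19213777-19213936, minus strand) show spaced site II elements, and AT5G20600 (chr5:6968034-6968193, minus strand) shows a telo box close to the start.
AT1G31660: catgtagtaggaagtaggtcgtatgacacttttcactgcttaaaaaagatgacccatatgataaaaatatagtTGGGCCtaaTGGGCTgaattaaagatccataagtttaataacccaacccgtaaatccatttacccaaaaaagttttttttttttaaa
YAO: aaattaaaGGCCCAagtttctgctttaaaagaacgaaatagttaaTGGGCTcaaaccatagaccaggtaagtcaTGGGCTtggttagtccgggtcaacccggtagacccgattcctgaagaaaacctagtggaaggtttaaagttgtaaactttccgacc
AT5G11240: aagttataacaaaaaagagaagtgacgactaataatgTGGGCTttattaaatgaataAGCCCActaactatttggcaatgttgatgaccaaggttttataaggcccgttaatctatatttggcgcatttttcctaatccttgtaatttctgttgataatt
ATG2: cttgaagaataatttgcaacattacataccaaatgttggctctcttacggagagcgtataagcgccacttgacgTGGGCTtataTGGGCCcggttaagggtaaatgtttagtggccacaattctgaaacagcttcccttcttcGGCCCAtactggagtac
AT5G20600: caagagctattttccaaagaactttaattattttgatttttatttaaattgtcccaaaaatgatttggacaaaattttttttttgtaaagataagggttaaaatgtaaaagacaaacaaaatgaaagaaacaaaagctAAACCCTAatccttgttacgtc

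Of the 26 rises after 1 cycle among members of nuclear and cytoplasmic roles, 12 were in the small subunit processome. Of its 18 tested genes, these 12 rose (66.7%, against 18.7% of all genes) and 1 fell, with a median log2 change of 0.55 (all genes -0.16). After 4 cycles 4 rose (22.2%, against 14.6%) and 1 fell, with a median of 0.22 (all genes -0.10). The 4 became 8 after median-of-ratios scaling, 9 after quantile normalization and 7 without both second replicates of the control and four-cycle groups. Of all genes, 19.6%, 19.0% and 14.5% were higher in those fits. The control mean was below the four-cycle mean, and this below the one-cycle mean, for 13 of the 18 (72.2%), an order held by 39 of the 76 members (51.3%) and 20.8% of all genes tested. The group's 19th gene, the FCF1-like gene AT1G26530, stayed below 1 FPKM and was not tested.

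AT1G31660 (chromosome 1, 11330924 to 11333540, minus strand) is described as bystin, whose yeast counterpart Enp1 takes part in maturation of the small subunit. Its levels were 13, 14.2 and 15.7 FPKM in control, 26.8, 25.2 and 29.8 FPKM after 1 cycle and 19.1, 20.7 and 19.7 FPKM after 4. The 3 groups did not overlap, with the four-cycle libraries between the others. The log2 change was 0.88 ± 0.10 after 1 cycle (adjusted p = 0.000141) and 0.45 ± 0.10 after 4 (adjusted p = 0.00782).

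YAO (chromosome 4, 2742932 to 2745635, minus strand) encodes a nucleolar WD40 protein associated with the U3 snoRNP and needed for embryo and gametophyte development in Arabidopsis. It stood at 5.10, 5.72 and 5.47 FPKM in control, 11.1, 9.96 and 10.9 FPKM after 1 cycle and 8.01, 7.45 and 9.85 FPKM after 4. Every treated library exceeded every control library, and the four-cycle libraries stayed below all one-cycle libraries. YAO rose by 0.86 ± 0.11 after 1 cycle (adjusted p = 0.000288) and by 0.55 ± 0.11 after 4 (adjusted p = 0.00497). Its gene overlaps AT4G05400 on the other strand by 18 bases, and whether the counting used strand is not given in the sources used here.

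AT4G04940 (chromosome 4, 2511028 to 2517217, minus strand), a WD repeat protein related to human WDR36, was measured at 3.22, 3.09 and 3.50 FPKM in control, 6.29, 5.49 and 7.10 FPKM after 1 cycle and 3.99, 3.67 and 4.64 FPKM after 4. The groups again did not overlap. It rose after 1 cycle (0.77 ± 0.12, adjusted p = 0.000703), and after 4 cycles the change was 0.25 ± 0.12 (adjusted p = 0.123), which was called after median-of-ratios scaling (0.35, adjusted p = 0.0376) and quantile normalization (0.38, adjusted p = 0.0213).

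RRP5 (chromosome 3, 3793731 to 3806743, minus strand), which in yeast acts in the assembly of both subunits, had 7.45, 6.33 and 8.09 FPKM in control, 12.6, 12.6 and 13.2 FPKM after 1 cycle and 10.7, 7.63 and 11.6 FPKM after 4. The second four-cycle library lay within the control range, the other two above it. RRP5 rose by 0.74 ± 0.15 after 1 cycle (adjusted p = 0.00274), and the four-cycle change was 0.39 ± 0.15 (adjusted p = 0.0619). That change was called without four-cycle replicate 2 (0.56, adjusted p = 0.00601), with a replicate block (adjusted p = 0.0246), and after median-of-ratios scaling (0.0161) and quantile normalization (0.0105).

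Other genes of the group that rose after 1 cycle were the WDR43-like genes AT5G11240 (0.68 ± 0.12) and AT1G15420 (0.64 ± 0.09), the UTP4-like gene AT1G27470 (0.60 ± 0.11), IMP4 of the Mpp10 complex (0.58 ± 0.12), the WDR3-like gene AT3G21540 (0.55 ± 0.10) and the BMS1-like GTPase gene AT1G06720 (0.54 ± 0.13). EDA14, described as UTP11, rose by 0.41 ± 0.14 (adjusted p = 0.0315), a call lost in 5 of the 9 fits that left out 1 library, with an adjusted p of up to 0.108. SWA1, a WD40 protein needed for progress of the female gametophyte, rose by 0.40 ± 0.14 (adjusted p = 0.0339) and lost its call in 5 of those fits, with an adjusted p of up to 0.111, and without the filter on low values. After 4 cycles AT1G15420 (0.33 ± 0.09) and AT1G27470 (0.39 ± 0.11) were the other genes that rose. The first call was lost without control replicate 1 or 3 (adjusted p of up to 0.0623) and the second without control replicate 2 or four-cycle replicate 3 (up to 0.0564).

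AT5G30495 (chromosome 5, 11379907 to 11381657, plus strand), an FCF2-type pre-rRNA processing protein, was the exception in the group. Its levels were 8.17, 12.7 and 10.7 FPKM in control, 5.98, 7.15 and 6.93 FPKM after 1 cycle and 5.39, 6.82 and 6.69 FPKM after 4. All treated libraries lay below all control libraries. It fell by 0.57 ± 0.16 on the log2 scale after 1 cycle (adjusted p = 0.0134) and by 0.65 ± 0.16 after 4 (adjusted p = 0.0103), and the first call was lost under median-of-ratios and quantile scaling, with an adjusted p of up to 0.13. The second FCF2-type gene, AT1G54770, had a change of -0.06 ± 0.24 after 1 cycle (adjusted p = 0.841).

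**Figure D3:**
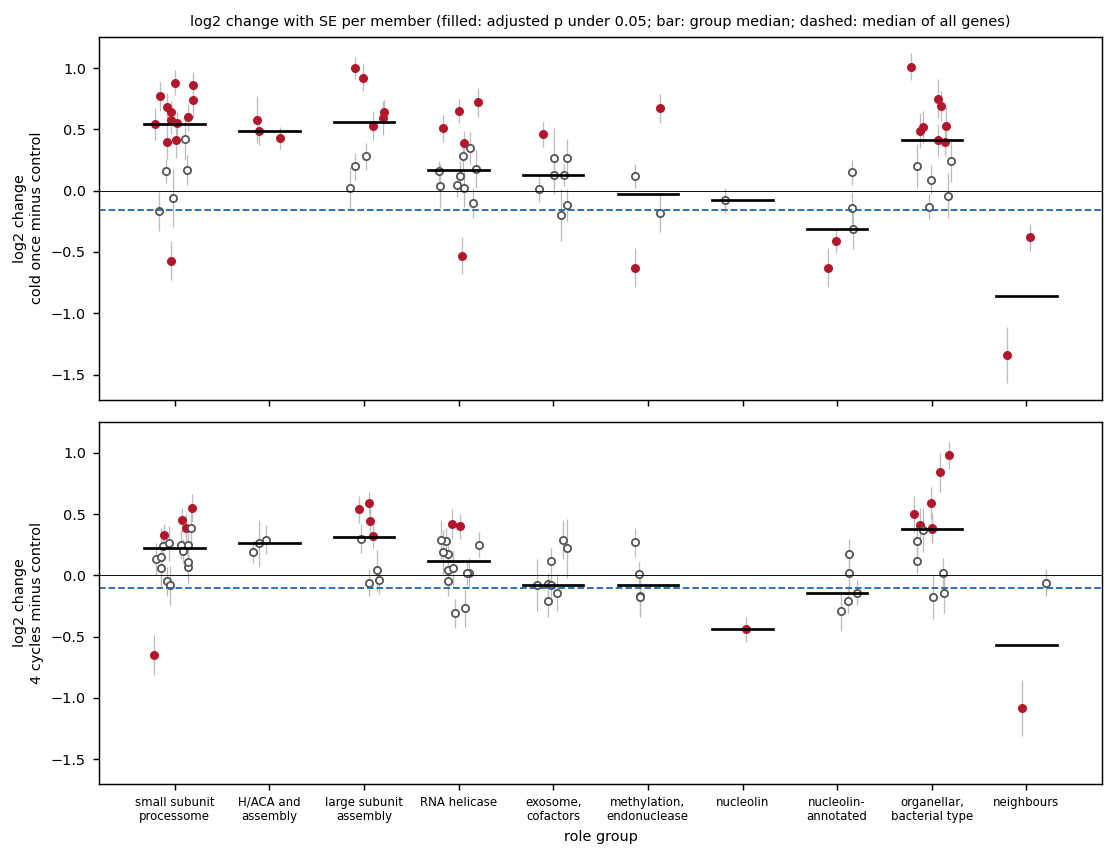
Points give the log2 change of each tested member with its standard error after 1 cycle (top) and 4 cycles (bottom) against control, by role; filled points passed the test, black bars are group medians and the dashed line is the median of all genes (-0.16 and -0.10). Medians of the small subunit processome (0.55 and 0.22) and the organellar factors (0.41 and 0.38) lie above that line in both panels.

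Of the box H/ACA group, whose particles guide pseudouridine formation, all 3 tested genes rose after 1 cycle, against 18.7% of all genes. None passed after 4, where 1 had an unadjusted p under 0.05. There, 2 were called higher after median-of-ratios scaling (19.6% of all genes) and 1 after quantile normalization (19.0%). The GAR1-like core protein gene AT3G03920 stood at 17.9, 28.9 and 21.7 FPKM in control, 31.2, 33.6 and 38 FPKM after 1 cycle and 23.7, 34.5 and 24.2 FPKM after 4. The one-cycle libraries were above all control libraries, while the four-cycle range took in the highest control value. It rose by 0.58 ± 0.19 after 1 cycle (adjusted p = 0.0292, up to 0.105 when 1 library was left out), and the four-cycle change was 0.26 ± 0.19 (adjusted p = 0.311). It overlaps 2 genes on the other strand, one of them by 246 bases. The assembly factor NAF1 rose by 0.49 ± 0.12 (adjusted p = 0.00682) and the gene AT5G57120, described as the nucleolar chaperone NOLC1, by 0.43 ± 0.09 (adjusted p = 0.00379). The second GAR1-like gene, AT5G18180, was at 0.15 to 1.07 FPKM and was not tested.

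In large subunit assembly 5 of 8 tested genes rose after 1 cycle and 4 after 4 cycles, where 18.7% and 14.6% of all genes did. None fell, where 33.6% and 24.9% of all genes did. The group medians were 0.56 and 0.31 (all genes -0.16 and -0.1).

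ATG2 (chromosome 3, 19210914 to 19213776, minus strand), the Arabidopsis ErbB3-binding protein EBP1, is a regulator of organ growth. It was at 52.6, 58.3 and 62.7 FPKM in control, 114, 117 and 120 FPKM after 1 cycle and 89.6, 87.0 and 85.6 FPKM after 4. The 3 groups were fully separate and the libraries within a group lay close together. It rose by 1.00 ± 0.09 (adjusted p = 3.55e-05) after 1 cycle, a ratio of means of 2.02, and by 0.59 ± 0.09 (adjusted p = 0.00106) after 4 cycles. A gene on the same strand, AT3G08210, with a mean of 0.139 FPKM, overlaps the span of ATG2 from gene start to end by 79 bases.

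EBP2 (chromosome 3, 8016051 to 8017508, minus strand), a homologue of a yeast protein needed for large subunit maturation, had 15.5, 16.4 and 16.9 FPKM in control, 31.5, 28.5 and 35.1 FPKM after 1 cycle and 23.3, 22.6 and 26.5 FPKM after 4. No groups overlapped, and the four-cycle libraries lay between the other two groups. EBP2 rose by 0.92 ± 0.11 after 1 cycle (adjusted p = 0.000138) and by 0.54 ± 0.11 after 4 (adjusted p = 0.00366).

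AT5G20600, an RRP1 homologue, rose in both comparisons (0.64 ± 0.10 and 0.32 ± 0.10), as did AT5G06350, with a Rix1 complex domain (0.59 ± 0.14 and 0.44 ± 0.14), and both four-cycle calls were lost in several fits that left out 1 library. LSG1-2, a GTPase of late large subunit maturation, rose after 1 cycle (0.53 ± 0.12). The midasin gene MDN1, an AAA ATPase that strips assembly factors from the large subunit precursor, had 2.76, 1.96 and 3.00 FPKM in control, 2.46, 2.49 and 2.85 FPKM after 1 cycle and 3.15, 1.87 and 3.05 FPKM after 4. Its groups overlapped, and its changes were 0.02 ± 0.17 and 0.04 ± 0.17 (adjusted p = 0.928 and 0.877). The genes for LAS1L (AT5G12220) and NOL9 (AT5G11010), which in mammals cut and phosphorylate the second internal spacer, changed by 0.28 ± 0.11 and 0.20 ± 0.11 after 1 cycle and did not pass (adjusted p = 0.0548 and 0.168).

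**Figure D4:**
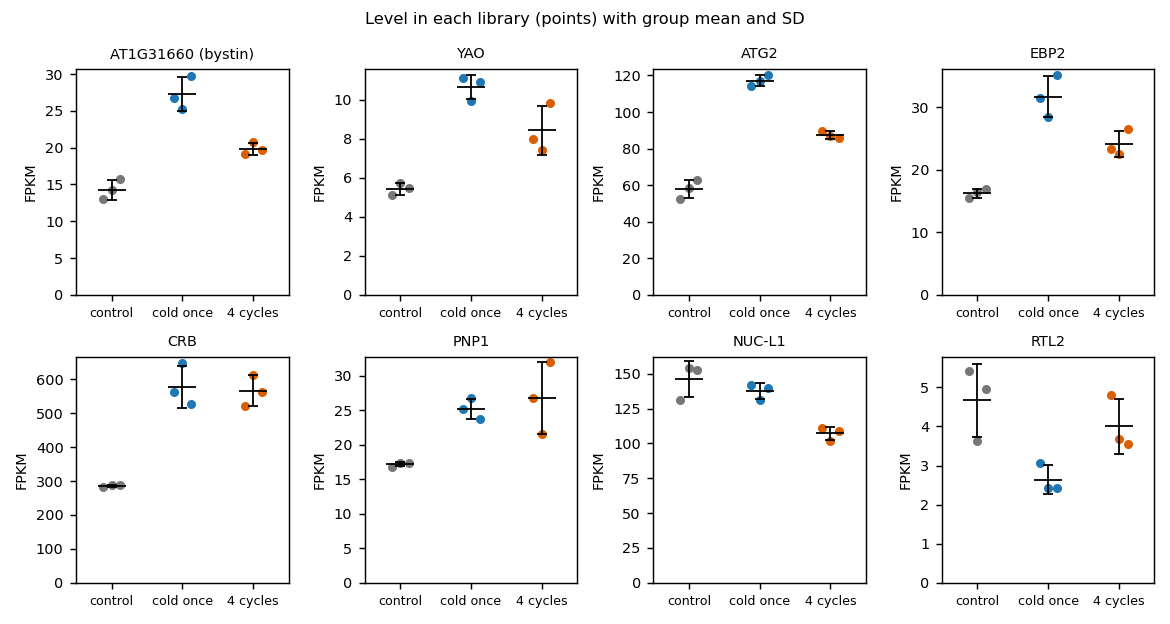
Points are the FPKM of single libraries for 8 members, with the group mean and SD in black. Bystin, YAO, ATG2 and EBP2 show four-cycle libraries between control and one-cycle libraries, CRB and PNP1 similar levels after 1 and 4 cycles, NUC-L1 its lowest levels after 4 cycles and RTL2 its lowest after 1.

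Of the 14 helicases, 4 rose and 1 fell after 1 cycle (28.6% higher, against 18.7% of all genes), and 2 rose after 4 (14.3%, against 14.6%). Under median-of-ratios and quantile scaling 7 and 8 were higher after 1 cycle (25.4% and 25.2% of all genes). After 4 cycles it was 5 in each (19.6% and 19.0% of all genes). RH5 (chromosome 1, 11479763 to 11482890, plus strand), a nucleolar DEAD-box protein also described as stress response suppressor 1, had 29.6, 39.3 and 35.7 FPKM in control, 54.5, 60.1 and 59.1 FPKM after 1 cycle and 42.9, 49.4 and 47.8 FPKM after 4. Libraries of the 3 groups did not overlap. It rose by 0.72 ± 0.12 (adjusted p = 0.000904) and by 0.42 ± 0.12 (adjusted p = 0.0206), and the second call was lost in 3 of the fits without 1 library. AT2G28600 rose in both comparisons (0.65 ± 0.10 and 0.40 ± 0.10), and RH57 (0.51 ± 0.11) and RH10 (0.39 ± 0.10) after 1 cycle. Without control replicate 1 the four-cycle call of AT2G28600 (adjusted p of 0.0547) and the call of RH10 (0.0509) were lost. The SEN1-like gene AT2G19120 was at 1.5, 1.18 and 1.30 FPKM in control, 0.633, 0.624 and 0.580 FPKM after 1 cycle and 1.17, 0.574 and 1.10 FPKM after 4. It fell by 0.53 ± 0.15 after 1 cycle (adjusted p = 0.0156), with 1 four-cycle library as low as the one-cycle ones. The call was lost under quantile normalization and without control replicate 1, with an adjusted p of up to 0.125. RH36, a helicase required for gametophyte development, ranged from 3.58 to 4.33 FPKM in control, 3.96 to 4.94 FPKM after 1 cycle and 3.62 to 4.60 FPKM after 4, and its changes (0.12 ± 0.12 and 0.02 ± 0.12) did not pass.

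Exosome genes, whose products trim the 3′ ends of rRNA intermediates and degrade by-products, had 1 call. Of 8 tested, 1 rose after 1 cycle (12.5%, against 18.7% of all genes). This became 3 after median-of-ratios scaling (25.4% of all genes) and 4 after quantile normalization (25.2%). None passed after 4 cycles, where 0 genes had an unadjusted p under 0.05. There, 1 was called higher after quantile normalization (19.0% of all genes) and none after median-of-ratios scaling (19.6%). The gene that rose was AT1G60080, described as the core subunit RRP43 (0.46 ± 0.10, adjusted p = 0.00344). The catalytic subunit RRP44A had 13.6, 12.7 and 13.2 FPKM in control, 12.2, 11 and 13 FPKM after 1 cycle and 13.1, 8.97 and 12 FPKM after 4. The helicase MTR4, which feeds RNA to the nuclear exosome, stood at 10.5, 9.79 and 11.2 FPKM in control, 10.9, 10.2 and 10.6 FPKM after 1 cycle and 10.4, 8.85 and 10.4 FPKM after 4. Groups overlapped for both genes. After 1 cycle their changes were -0.12 ± 0.13 and 0.01 ± 0.10 (adjusted p = 0.479 and 0.945).

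Among methyltransferases and endonucleases, RID2 and RTL2 moved in opposite directions after 1 cycle. RID2 (AT5G57280; chromosome 5, 23204377 to 23206663, plus strand), a methyltransferase of 18S rRNA whose loss disturbs meristem development in Arabidopsis, was at 8.27, 12.1 and 10.4 FPKM in control, 17.0, 16.4 and 16.7 FPKM after 1 cycle and 12.1, 12.4 and 12.7 FPKM after 4. The one-cycle libraries stood apart from both other groups. It rose by 0.67 ± 0.12 after 1 cycle (adjusted p = 0.00179), and after 4 the change was 0.27 ± 0.12 (adjusted p = 0.116). The four-cycle change was called without control replicate 2 (0.38, adjusted p = 0.032) and under both other scalings (adjusted p = 0.0414 in each).

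RTL2 (chromosome 3, 7119191 to 7121023, minus strand), an RNase III enzyme that cuts the 3′ external spacer of the rRNA precursor in Arabidopsis, was at 5.42, 3.63 and 4.97 FPKM in control, 3.07, 2.43 and 2.42 FPKM after 1 cycle and 4.81, 3.67 and 3.54 FPKM after 4. The one-cycle libraries were below all others, and control and four-cycle libraries overlapped. RTL2 fell by 0.63 ± 0.16 after 1 cycle (adjusted p = 0.00859), a call lost under quantile normalization (adjusted p of 0.0514), and the four-cycle change was -0.18 ± 0.16 (adjusted p = 0.407).

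NUC-L1 (chromosome 1, 18098081 to 18101732, plus strand), the main nucleolin of Arabidopsis and a regulator of rRNA gene chromatin and precursor processing, differed from most members. It had 131, 154 and 153 FPKM in control, 142, 131 and 140 FPKM after 1 cycle and 111, 102 and 109 FPKM after 4. Control and one-cycle libraries overlapped, and the four-cycle libraries were below all others. Its change was -0.08 ± 0.10 after 1 cycle (adjusted p = 0.499) and it fell by 0.44 ± 0.10 after 4 (adjusted p = 0.00679), a call kept in all 17 alternative fits. After 1 cycle its direction depended on the scaling: it was 0.10 after median-of-ratios scaling, without a call, and it was called lower after quantile normalization (-0.26, adjusted p = 0.0399). NUC-L2 was at 0.532 to 0.882 FPKM and was not tested. Of 10 genes annotated by similarity to nucleolin, 5 were tested, and AT3G09160 (-0.63 ± 0.16) and AT5G51730 (-0.41 ± 0.10) fell after 1 cycle. Both calls were lost under quantile normalization, and that of AT5G51730 also under median-of-ratios scaling.

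Among the 13 organellar or bacterial-type factors, 8 rose after 1 cycle (61.5%, against 18.7% of all genes) and 7 after 4 (53.8%, against 14.6%). Their medians were 0.41 and 0.38 (all genes -0.16 and -0.10). None fell, where 33.6% and 24.9% of all genes did. Control means lay below four-cycle means and these below one-cycle means for 7 of the 13 (53.8%). That order was held by 51.3% of the tested members and 20.8% of all genes tested.

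CRB (chromosome 1, 3015237 to 3018542, plus strand), also known as CSP41b, binds chloroplast transcripts and rRNA precursors, and had the highest level of all members. It was at 282, 289 and 287 FPKM in control, 562, 647 and 527 FPKM after 1 cycle and 522, 613 and 563 FPKM after 4. All treated libraries were far above control, and those of 1 and 4 cycles overlapped. It rose by 1.01 ± 0.11 (adjusted p = 9.24e-05) and by 0.98 ± 0.11 (adjusted p = 0.00018), and 4 cycles against 1 gave -0.03 ± 0.11 (adjusted p = 0.911).

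Its partner CSP41A (chromosome 3, 23326867 to 23328789, minus strand) stood at 157, 130 and 153 FPKM in control, 245, 249 and 217 FPKM after 1 cycle and 187, 172 and 214 FPKM after 4. The 3 groups did not overlap. It rose by 0.69 ± 0.12 (adjusted p = 0.00126) and by 0.38 ± 0.12 (adjusted p = 0.0322), and the four-cycle call was lost in 6 alternative fits, quantile normalization among them (adjusted p of up to 0.244).

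AT4G34730 (chromosome 4, 16569368 to 16573955, minus strand) is described as chloroplast ribosome-binding factor A, whose Escherichia coli counterpart matures the small subunit and is induced by cold shock. Levels were 20.6, 23.3 and 18.4 FPKM in control, 33.7, 39.0 and 34.2 FPKM after 1 cycle and 31.3, 49.1 and 34.9 FPKM after 4. Treated libraries were all above control, with the second four-cycle library the highest. It rose by 0.75 ± 0.16 (adjusted p = 0.0042) and by 0.84 ± 0.16 (adjusted p = 0.00361).

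PNP1 (chromosome 3, 919362 to 925372, plus strand), the chloroplast polynucleotide phosphorylase that trims 3′ ends, was at 16.8, 17.4 and 17.3 FPKM in control, 25.1, 26.7 and 23.7 FPKM after 1 cycle and 26.7, 21.5 and 31.9 FPKM after 4. Control libraries lay close together and below all treated libraries. It rose by 0.52 ± 0.13 (adjusted p = 0.00892) and by 0.59 ± 0.13 (adjusted p = 0.00709). The exonuclease RNR1, which acts in chloroplast rRNA maturation, rose by 0.40 ± 0.12 and 0.39 ± 0.12, the GTPase gene OBGL by 0.49 ± 0.14 and 0.41 ± 0.14, and the mini-ribonuclease 3 gene AT3G13740 by 0.53 ± 0.15 and 0.50 ± 0.15. All 6 of these calls were lost in at least 1 fit that left out a library. RNJ, the chloroplast RNase J, changed by 0.20 ± 0.18 and 0.37 ± 0.18 and did not pass (adjusted p = 0.386 and 0.136). Its four-cycle change was called without four-cycle replicate 2 (0.60, adjusted p = 0.0033), after median-of-ratios scaling (0.0494) and after quantile normalization (0.0404). The mitochondrial PNP2 changed by 0.24 ± 0.17 and -0.14 ± 0.17 and did not pass (adjusted p = 0.266 and 0.561).

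The 5 genes described as something else included 2 that were tested. FLP2 fell in both comparisons (-1.34 ± 0.23 and -1.08 ± 0.23), at 1.21 to 2.66 FPKM in control and no more than 0.539 FPKM in any treated library. It passed the filter of 1 FPKM only through the control libraries, so a fall was the only call open to it. It is counted among the lower members of both comparisons. AT2G48000 fell after 1 cycle (-0.38 ± 0.11), a call lost under median-of-ratios scaling (adjusted p of 0.131) and quantile normalization (0.339). Without the 5 genes the counts were 34 higher and 5 lower after 1 cycle and 17 higher and 2 lower after 4.

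Between 4 cycles and 1 cycle, no member passed the test in either direction. Over all genes 0.738% rose and 0.536% fell in this comparison (1.27% in either direction), 131 genes against 95, a balance that turned to 126 against 227 after median-of-ratios scaling and 101 against 173 after quantile normalization. At an unadjusted p under 0.05 there were 30 of 76 members, 26 of them lower after 4 cycles, and 3513 of 17740 genes in all, 1338 of them lower. The median log2 change of members was -0.14, against 0.06 for all genes, and the four-cycle libraries lay below all one-cycle libraries for 30 members, where the share of all genes was 9.92%, and above them for 6, where it was 13.9%. Medians by role were -0.31 in the small subunit processome, -0.29 in large subunit assembly, -0.09 for the exosome and -0.03 for the organellar factors, and these differences between roles were not tested. The largest negative changes were those of AT4G04940 (-0.51 ± 0.12, adjusted p = 0.0696) and AT3G21540 (-0.47 ± 0.10, adjusted p = 0.0649), named after their values were seen. Both passed after median-of-ratios scaling, after quantile normalization and with a replicate block.

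Genes around the pathway were counted in the same way. Among 145 tested genes with another rRNA or ribosome biogenesis term, 75 rose and 12 fell after 1 cycle, 35 rose and 11 fell after 4, and 1 fell between them. Of all genes 18.7% rose and 33.6% fell after 1 cycle and 14.6% rose and 24.9% fell after 4. The gene that fell between them was NSN1, the Arabidopsis nucleostemin, a GTPase of ribosome assembly, at 13.9, 15 and 17.6 FPKM in control, 31.1, 28.8 and 31.0 FPKM after 1 cycle and 20.1, 19.2 and 20.2 FPKM after 4. It rose by 0.93 ± 0.10 after 1 cycle (adjusted p = 0.000105) and was lower by -0.59 ± 0.10 after 4 cycles than after 1 (adjusted p = 0.034). In this wider set AT2G19870, a mitochondrial rRNA methyltransferase, rose by 0.98 ± 0.08 and 0.77 ± 0.08, and LSG1-1, a paralogue of LSG1-2, fell in both comparisons (-1.51 ± 0.16 and -1.26 ± 0.16).

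Of 7 RNA polymerase I genes 3 rose after 1 cycle (42.9%, against 18.7% of all genes): NRPA1 (0.67 ± 0.16), RPA12 (0.59 ± 0.17) and NRPA2 (0.45 ± 0.13). After 4 cycles none of the 7 rose and RPA49 fell (-0.37 ± 0.12), which is 14.3%, against 24.9% of all genes. Of 5 genes of the TOR pathway, which ties growth to ribosome synthesis, 1 rose in each comparison, where 18.7% and 14.6% of all genes did. This was S6K1, from 21.2 ± 1.15 FPKM (SD, n = 3) in control to 58.8 ± 2.68 and 65.5 ± 3.58 FPKM (1.43 ± 0.09 and 1.58 ± 0.09). LST8-1 fell in both comparisons (-0.26 ± 0.09 and -0.36 ± 0.09), and S6K2 after 4 cycles (-0.75 ± 0.22). Of all genes, 33.6% and 24.9% fell. TOR (-0.49 ± 0.23 and -0.4 ± 0.23) and RAPTOR1 (-0.29 ± 0.17 and -0.21 ± 0.17) did not pass. The medians of the 5 genes were -0.29 and -0.36 (all genes -0.16 and -0.1).

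Levels in these mixed tissues do not separate a change in cell number from a change in RNA per cell: fewer cells of a type and less RNA per cell cannot be told apart. The defining leaf markers were present in every library, with a summed level of 5 genes of 18216 to 21351 FPKM in control, 24413 to 27381 FPKM after 1 cycle and 23357 to 27954 FPKM after 4. Of these 5, 3 rose and CAB3 fell in both comparisons. For 11 genes of dividing cells, in which ribosome synthesis is high, the summed level was 75.2 to 104 FPKM in control, 121 to 132 FPKM after 1 cycle and 100 to 123 FPKM after 4, none being at 0 in any library. Of these 11, TSO2, MCM5 and PCNA1 rose after 1 cycle (27.3%, against 18.7% of all genes) and TSO2 after 4 (9.09%, against 14.6%). TSO2 had the highest level of them, at 24.9 ± 3.76 FPKM (SD, n = 3) in control and 51.1 ± 1.74 and 41.3 ± 4.22 FPKM after 1 and 4 cycles. The other 8 were not called after 1 cycle, with changes from -0.26 ± 0.18 (CDKB2;1) to 0.27 ± 0.12 (PCNA2). Among those 8, the mitotic cyclin CYCB1;1 changed by 0.16 ± 0.19. Flower markers (7 genes) summed to 9.43 to 42.5, 1.81 to 7.70 and 0.974 to 28.7 FPKM, with 1 gene (SEP3) lower after 1 cycle and AP3 at 0 in 3 treated libraries, and the 3 stem wall markers to 7.76 to 11.4, 8.10 to 10.3 and 5.16 to 9.72 FPKM. The part of these cell types in the results was not tested. Of 6 root markers looked up, RHD6, LRX1 and EXPA7 had no values, and the 3 with values summed to 10.8 to 63.6 FPKM. The 3 meristem markers summed to 1.80 to 9.14 FPKM, with overlapping groups in both sums. The 2 seed markers, CRU3 and SESA3, had no values among the 25320 genes. The root sum was mostly BGLU23, while NRT2.1, a nitrate transporter, rose from 0.138 ± 0.088 FPKM (SD, n = 3) in control to 1.31 ± 0.222 and 1.28 ± 0.849 FPKM (1.02 ± 0.23, adjusted p = 0.00557, and 0.94 ± 0.23, adjusted p = 0.0117), with every treated library above every control library. NRT2.1 passed the filter of 1 FPKM only through treated libraries, so a rise was the only call against control open to it.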

How the data were processed

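RNA from stems and leaves was made into libraries from 0.5 µg of total RNA with a SMARTER kit, per the labels' protocols. The deposited table holds FPKM values that the authors computed, on a linear scale with 1 column for each library. The submitters' processing notes list TopHat, Cufflinks and Cuffdiff but give no version. Build and strand use are not given in the sources used here, and gene positions equal TAIR10.1 for 99.98% of loci. Low FPKM values fall on steps of whole reads for 99.5% of genes with a length (tolerance 0.05 read), which gave the depths; the smallest depth that made values whole was taken, a rule set after a doubled depth had appeared for 1 library.

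The 17740 genes that reached 1 FPKM in 3 or more libraries were tested as log2(FPKM + 1) in limma 3.58.1 (R 4.3.3; 1 mean per group, all 9 libraries, eBayes with trend), adjusted by Benjamini-Hochberg. The pseudocount understates changes of low genes. Python 3.11.15 and pandas 2.3.3 made the tables. The procedure was tested on simulated data with few changed genes, as many up as down, and no trend with gene length. These data differ in those respects, so the simulation does not bear on how reliable the calls here are.

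Members and lists were chosen with earlier results of these data known. The exact term was used (88 genes); any term containing the words gives 97. Role groups were made by hand from descriptions. Named by rule were, per comparison, the 10 largest rises and falls among called members with a mean of at least 5 FPKM, and a list of known factors; the remaining names were chosen after values were seen. Promoter windows were cut from the TAIR10.1 genome in place of a promoter table. Merging of overlapping motif matches was added after first shares were seen, and the printed promoters come from the last of several lists tried.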

Additional observations from a re-analysis of the deposited data

How the results depend on the processing

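For the 76 members as a whole, no alternative reversed the direction of a median relative to all genes. Against control, more members rose than fell in every setting. Counts did not always stay above those of all genes. Without four-cycle replicate 3, 9 of the 76 rose after 4 cycles, no larger a share than among all genes in that fit. Of the calls, 27 of the 41 after 1 cycle and 10 of the 20 after 4 cycles held in every other setting in which the gene was tested. The settings were pseudocounts, filters, scalings, groups fitted, replicate block and each library left out, leaving aside 3 settings added after seeing the data. Among genes so counted, AT1G60080 and FLP2 were not tested with the minimum of 5 FPKM. After 1 cycle the count of lower members was 3 (of 61 tested) with a minimum of 5 FPKM, 4 with median-of-ratios scaling and 2 with quantile normalization. Of all genes, 35.5%, 25.1% and 24.9% were lower in those fits. After 4 cycles the count of higher members was 30 with median-of-ratios scaling (19.6% of all genes) and 29 with quantile normalization (19.0%). It was 27 without control replicate 2 and four-cycle replicate 2 (14.5% of all genes), one of those 3. Between 4 cycles and 1, lower members numbered 3 with median-of-ratios scaling (1.28% of all genes), 3 with quantile normalization (0.975%) and 4 with the replicate block (1.3%). The cause was not tested, beyond what each scaling does to the median of all genes. The median of members relative to all genes (0.44 after 1 cycle, 0.25 after 4, -0.20 between them) was 0.27 after 1 cycle with a pseudocount of 5 and 0.56 with a minimum of 5 FPKM; with no filter it was 0.25, 0.14 and -0.13, with more genes near 0 tested. Leaving out 1 library gave 28 to 36 higher and 6 to 7 lower members after 1 cycle, 9 to 20 higher and 3 to 3 lower after 4, and 0 in both directions between them; medians ran from 0.39 to 0.49, 0.22 to 0.26 and -0.24 to -0.20.

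Same-numbered libraries shared deviations only in part (correlations from -0.108 to 0.463, over 0.1 in 6 of 9 pairs, 5 of 9 libraries correlating best with their own number in both other groups), so the numbers were not taken to pair the samples. With the replicate block the other counts of members stayed within 1.5 times those reported, while between 4 cycles and 1 the shares of all genes went to 2.67% higher and 1.3% lower. Among roles, scaling turned medians near 0: under median-of-ratios scaling that of methyltransferases and endonucleases went from -0.03 to 0.12 after 1 cycle and from -0.08 to 0.02 after 4, and that of the exosome from -0.07 to 0.03 after 4. Values near 1 FPKM rest on few reads, and changes there are limited by depth.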

Other observations

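Within groups, deviations from the group mean moved with gene length in some libraries. Across the 76 tested members, Spearman's correlation of a library's deviation with exon length was -0.66 in control replicate 2 and -0.75 in four-cycle replicate 2. It was 0.41 to 0.59 in the other control and four-cycle libraries, and -0.11 to 0.15 in the one-cycle libraries. These values share the libraries and the lengths of the same genes and are given as a description. Over 17637 tested genes with a length the values for the same 2 libraries were -0.47 and -0.58. In four-cycle replicate 2, members at or above the median exon length of 1932 bases deviated by a median of -0.16 on the log2 scale and shorter members by 0.05. The part of this in the results was not tested beyond the fit that leaves out both libraries. In that fit 37 members were higher after 1 cycle (19.3% of all genes) and 27 after 4 (14.5%).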
